A study of Schizosaccharomyces pombe with 29 samples.

Results

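The nuclear genes for mitochondrial ribosomal proteins of fission yeast (Schizosaccharomyces pombe) were taken from the RNA-seq table by name: every row whose name starts with mrp followed by l, s or a digit, antisense rows left out. The rule took 46 of 7016 rows. Of these, 45 are protein genes of the mitochondrial ribosome, and 44 of the 45 matched a RefSeq entry; mrpl1602 did not and was placed by its name. By name or RefSeq product, 32 encode proteins of the large (54S) subunit and 13 proteins of the small (37S) subunit. The remaining row, mrp1, has the RefSeq product "RNAse MRP", an RNA that processes ribosomal RNA precursors and only shares the letters; it was listed at 0 in all 8 libraries and is not counted below. A second row with the same RefSeq product, SPNCRNA.727, held 5 to 16.

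RNA was measured in 8 libraries of cells grown in PMG, a minimal medium, and moved to 34 °C for 3 h before collection, per the labels. The wild type (WT) gave 3 libraries, and 3 came from cells overexpressing the E. coli gene rnhA (pRnhA), which encodes an RNase H, and 2 from a strain lacking rnh1 and rnh201 (rnh1Δrnh201Δ), the genes of RNase H1 and of the catalytic subunit of RNase H2. RNase H cuts the RNA strand of RNA-DNA hybrids, so the design sets a gain and a loss of this activity against the same control. The labels do not say how rnhA was expressed, whether strains carried other alleles, or whether replicates were separate cultures, so a p-value measures only the spread between these libraries. The 18 samples of RNA-DNA hybrid mapping and 3 small RNA samples among the 29 of the series were not analysed here.

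The mitochondrial ribosome translates the few proteins encoded in the mitochondrial genome, mostly core subunits of the respiratory chain and the ATP synthase. Its ribosomal RNAs are made inside the organelle, whereas nearly all of its proteins are encoded in the nucleus, made in the cytosol and imported, so the 2 subunits are assembled from products of both genomes. The ribosome descends from a bacterial one, and its proteins are named by origin: u for proteins found in all ribosomes, b for those shared with bacteria, m for those found in mitochondria. By the RefSeq products, 20 of the 45 genes encode u proteins, 9 encode b proteins and 12 encode m proteins, and 4 have no such name. The genes are spread over the genome, with 16 on chromosome I, 18 on chromosome II and 10 on chromosome III. Few lie side by side: mrps12 is next to mrpl28, and mrpl28 and mrpl40, like mrp4 and mrp10, have 2 genes between them.

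The table holds DESeq2-normalized counts, rounded by the authors to 2 significant digits. All 45 genes passed the filter of a mean of at least 1, as did 6456 rows in all. WT means ran from 65.3 for mrpl33 to 1170 for mrpl20, with a median of 483, and 41 of the 45 lay between 200 and 1000. These counts are not divided by transcript length, so they order no gene above another. Rounding could move a single value of these genes by 1.04% (median) and by at most 5%. Library totals of normalized counts ran from 8392168 to 9455805; the raw depth is unknown, so no counting error is given. The deletion labels were borne out by the targeted genes: rnh1 held 36 and 23 in rnh1Δrnh201Δ and 290 to 320 in the other libraries, and rnh201 held 7 and 12 there and 300 to 460 in the others. Libraries also differed in mating type within each group: WT replicates 1 and 2, pRnhA replicates 1 and 2 and rnh1Δrnh201Δ replicate 2 held 710 to 820 of the transcript mat1-Mc, and the other 3 libraries held 1 to 13 of it and 460 to 640 of mat2-Pc.

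In WT the genes varied little between libraries. The median coefficient of variation was 6.90% over the 45 genes and 10.5% over all rows tested; in pRnhA it was 5.41% against 6.11%, and in rnh1Δrnh201Δ 3.29% against 5.35%. All rows include means down to 1, whereas 41 of the 45 genes had WT means of 200 to 1000. The comparison is therefore not matched on level. Only mrpl33 and mrpl37 exceeded 20% in WT. The count of mrpl33, which encodes uL30m, was 49, 65 and 82 in WT replicates 1, 2 and 3, 53, 80 and 80 in pRnhA, and 59 and 72 in rnh1Δrnh201Δ. Its WT libraries alone spanned the values of every other library, and no contrast of it passed the test. The count of mrpl37 (mL54) was 350, 220 and 260 in WT, 340, 260 and 270 in pRnhA, and 300 in both deletion libraries, with the highest and lowest values both in WT. The third most variable gene in WT, mrpl28 (mL40), stood at 400, 310 and 320 there, 390 to 410 in pRnhA, and 400 and 380 in rnh1Δrnh201Δ. WT replicate 1 was the source of the high value in both mrpl37 and mrpl28; it was the highest WT library for 27 of the 45 genes, and replicate 3 was the lowest for 20.

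The comparison of pRnhA with WT asked how the genes respond to added RNase H. Most stood slightly higher in pRnhA: 6 of the 45 were called higher and 0 lower by limma at an adjusted p under 0.05 (Benjamini-Hochberg over all rows tested). In that contrast 20.2% of all rows tested were called, 8.88% higher and 11.4% lower, and the 6 genes called higher are 13.3% of the 45, near that background. The signs were less evenly split than in the whole table. The log2 fold change was above 0 for 37 of the 45 (82.2%), against 51.0% of all rows, and its median was 0.11, or 108% of WT, against 0.00 for all rows. The changes were small, from -0.18 for mrpl10 to 0.39 for mrps18.

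**Figure D1:**
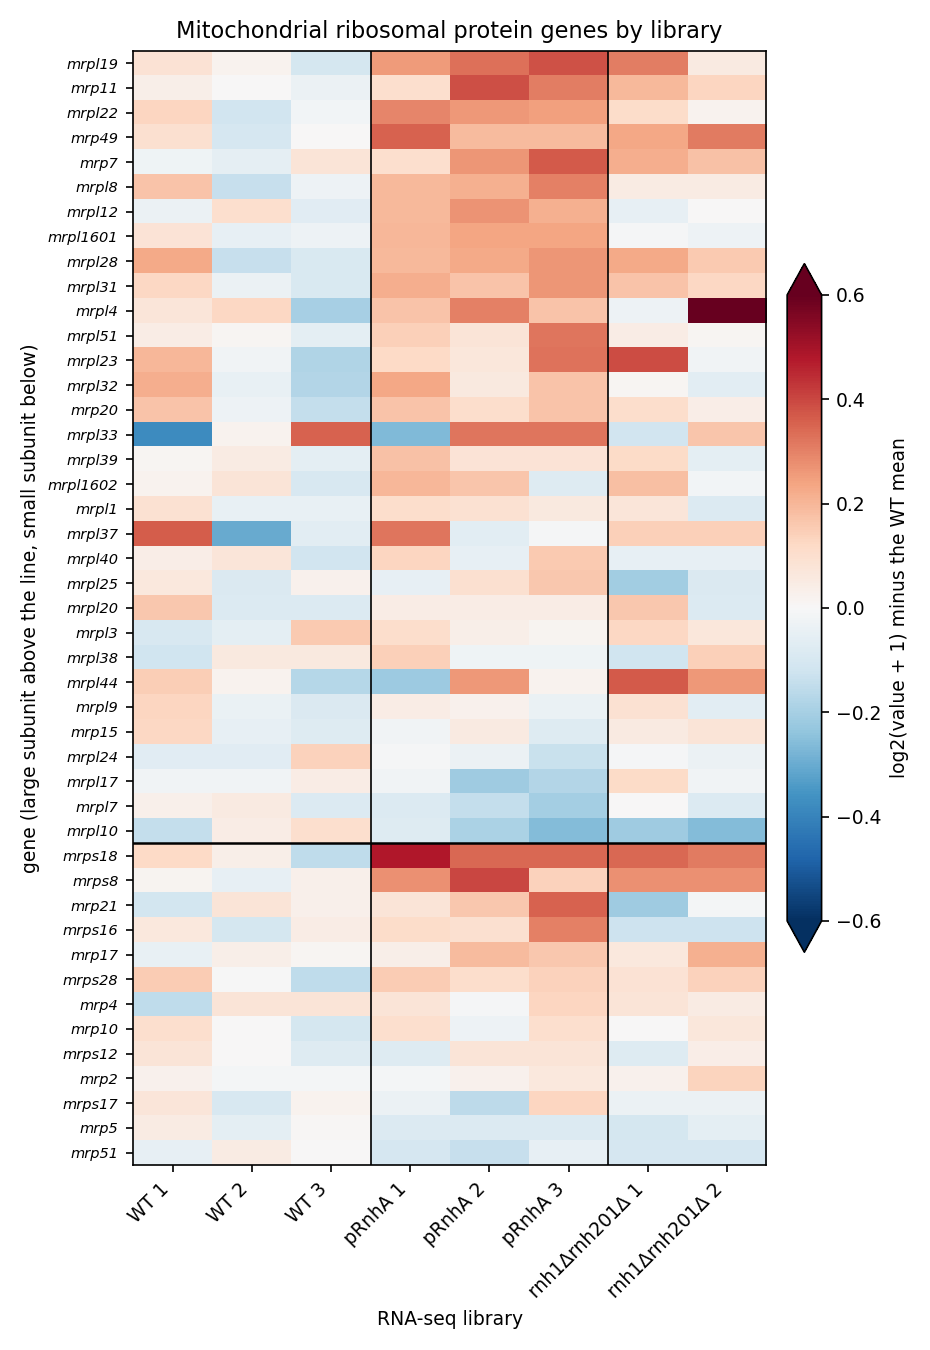
Each row is a gene and each column a library; color gives log2(value + 1) minus the mean of the 3 WT libraries, with large-subunit genes above the horizontal line, small-subunit genes below it, and genes in order of their change in pRnhA within each. Most rows are red in the 3 pRnhA columns. Some, among them mrps18, mrps8, mrp7, mrp11 and mrp49, are red in both deletion columns as well. The value of mrpl4 in rnh1Δrnh201Δ replicate 2 lies beyond the color scale.

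The summed count of the 45 genes was 24439, 23135 and 22938 in WT (mean 23504 ± 816 SD, n = 3) and 25356, 25210 and 25470 in pRnhA (25345 ± 130 SD, n = 3). Every pRnhA library was above every WT library. In bulk libraries more RNA per cell and more cells that express a gene cannot be told apart. As a share of the library's total the sum was 0.254% to 0.259% in WT and 0.298% to 0.3% in pRnhA. It was 0.285% and 0.274% in rnh1Δrnh201Δ. The share also rises where the total falls. Totals were 8933949 to 9455805 in WT, 8392168 to 8513720 in pRnhA, and 8635280 and 8889190 in rnh1Δrnh201Δ. Taken gene by gene, the median log2 deviation from the WT mean was 0.06, -0.02 and -0.04 in the WT libraries and 0.11, 0.09 and 0.14 in the pRnhA libraries, beside 0.00 in each for all rows tested. The pooled SD of these library medians within groups was 0.039, and the gap between WT replicate 1 and pRnhA replicate 2 was smaller than that.

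**Figure D2:**
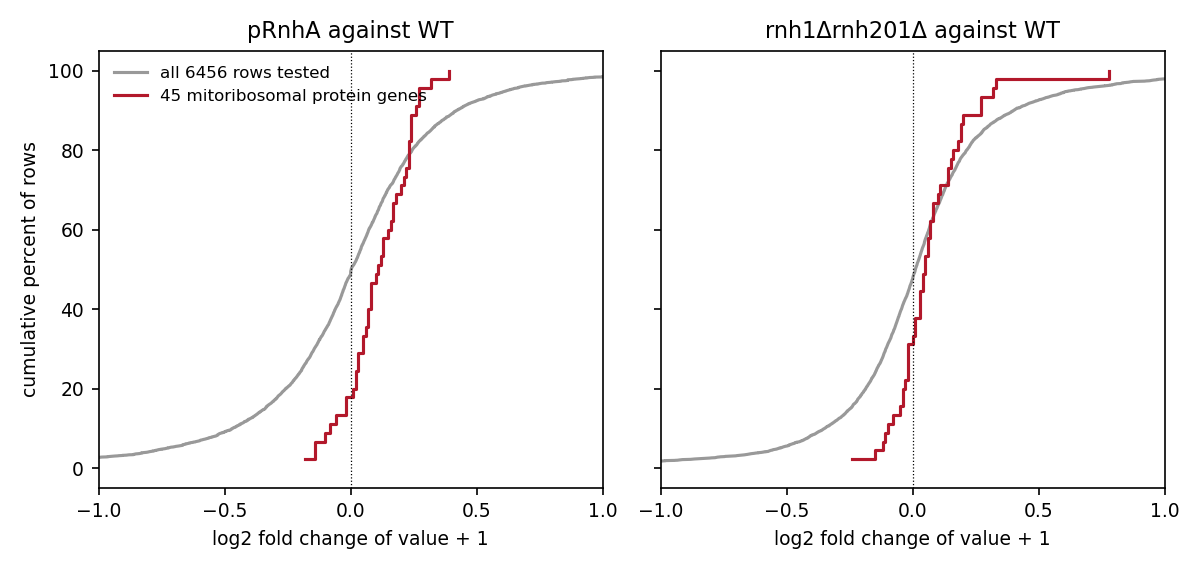
Cumulative percent of rows (vertical axis) against log2 fold change of value + 1 relative to WT (horizontal axis, cropped at -1 and 1), for the 45 mitochondrial ribosomal protein genes in red and all 6456 rows tested in grey. In pRnhA the red curve crosses 0 with 37 of 45 genes to its right, and its changes run from -0.18 to 0.39. The grey curve spreads wider, but all rows are more numerous and include low counts, so the spreads are not matched. In rnh1Δrnh201Δ 30 of 45 lie to the right of 0, with mrpl4 at 0.78.

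The genes called higher encode proteins of both subunits. In the large subunit, mrpl19 and mrpl12 encode uL11m and bL12m, which in bacteria belong to the stalk that recruits translation factors to the ribosome. The count of mrpl19 was 480, 460 and 420 in WT (453 ± 30.6 SD, n = 3), 540, 570 and 590 in pRnhA (567 ± 25.2 SD, n = 3), and 560 and 470 in rnh1Δrnh201Δ. All 3 pRnhA values were above all WT values, and the 2 deletion libraries fell on either side of that gap. Its log2 fold change in pRnhA was 0.32 (SE 0.09, limma adjusted p 0.036). The count of mrpl12 was 810, 890 and 790 in WT, 950, 1000 and 960 in pRnhA, and 800 and 830 in rnh1Δrnh201Δ. Here the deletion libraries lay among the WT libraries and below every pRnhA library, and the change in pRnhA was 0.23 (SE 0.06, limma adjusted p 0.037). The gene of the protein that anchors bL12 in bacteria, mrp11 (uL10m), showed a change of similar size that missed the threshold (0.27, SE 0.08, limma adjusted p 0.058). It stood at 430, 420 and 410 in WT, 450, 550 and 520 in pRnhA, and 480 and 460 in rnh1Δrnh201Δ.

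The other large-subunit genes called were mrpl22 and mrpl1601. The uL22 protein lines the exit tunnel of bacterial ribosomes, and its gene mrpl22 stood at 840, 710 and 760 in WT, 940, 920 and 910 in pRnhA, and 830 and 780 in rnh1Δrnh201Δ. The groups WT and pRnhA did not overlap, and the change was 0.26 (SE 0.07, limma adjusted p 0.034). In bacteria uL16 sits near the site where aminoacyl-tRNA enters. Its gene mrpl1601 stood at 690, 630 and 640 in WT, 750, 770 and 770 in pRnhA, and 650 and 640 in rnh1Δrnh201Δ, a change of 0.23 in pRnhA (SE 0.06, limma adjusted p 0.030). A paired name, mrpl1602, stood at 760, 790 and 700 in WT, 860, 840 and 710 in pRnhA, and 850 and 740 in rnh1Δrnh201Δ (0.10 in pRnhA, limma adjusted p 0.51). Whether reads could be shared between the 2 rows is not given in the sources used here, so their separate values are uncertain. The bL27 protein reaches toward the peptidyl transferase center in bacteria. Its gene mrp7 stood at 540, 530 and 580 in WT, 590, 660 and 710 in pRnhA, and 640 and 620 in rnh1Δrnh201Δ. WT and pRnhA did not overlap, but the change in pRnhA missed the threshold (0.24, SE 0.08, limma adjusted p 0.063).

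In the small subunit, mrps18 and mrps8 were called. The bacterial relatives of both proteins bind the central part of the small ribosomal RNA. The count of mrps18 was 350, 330 and 290 in WT (323 ± 30.6 SD, n = 3), 450, 410 and 410 in pRnhA (423 ± 23.1 SD, n = 3), and 410 and 400 in rnh1Δrnh201Δ. Every library of both altered strains was above every WT library. The change in pRnhA, 0.39 (SE 0.09, limma adjusted p 0.021), was the largest of the 45. The count of mrps8 (uS8m) was 920, 880 and 930 in WT, 1100, 1200 and 1000 in pRnhA, and 1100 in both deletion libraries, again without overlap with WT. Its change in pRnhA was 0.27 (SE 0.07, limma adjusted p 0.033), and its annotated antisense row held 0 to 5 in every library. Among the large-subunit genes not called, mrp7, mrp11 and mrp49 also had every library of both altered strains above every WT library.

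**Figure D3:**
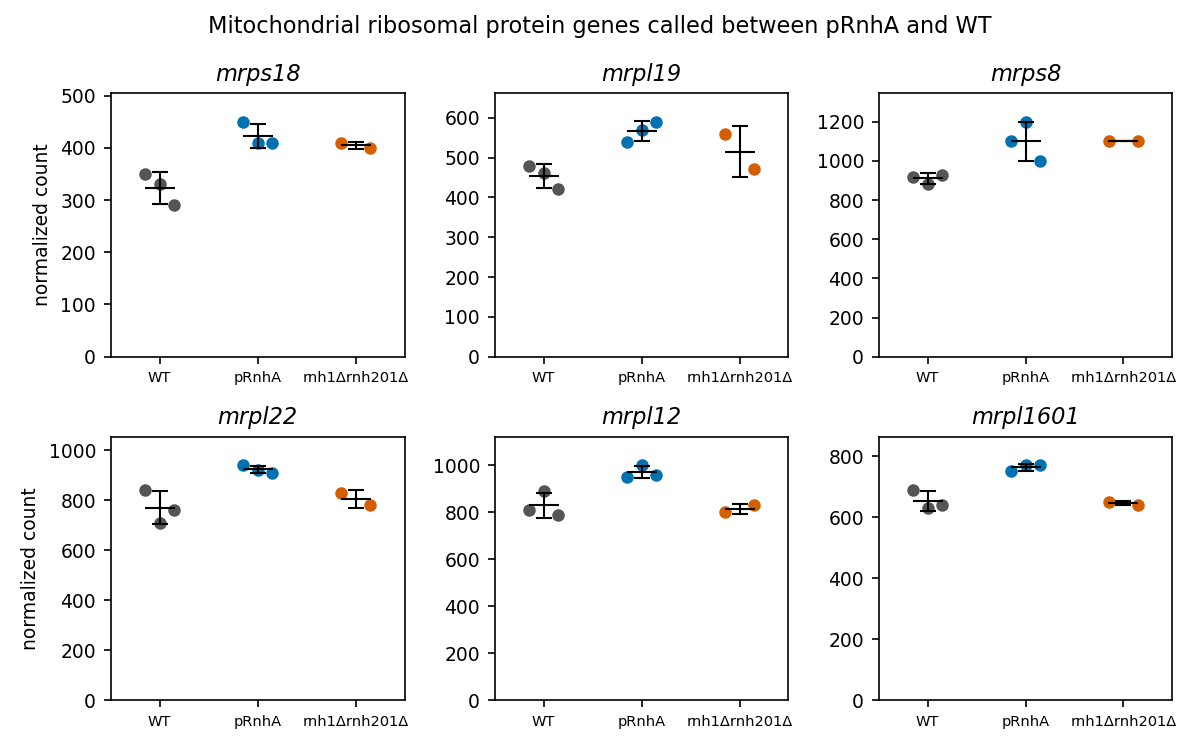
Normalized counts of the 6 genes called between pRnhA and WT, one panel each with its vertical axis from 0; points are libraries in replicate order, the long tick is the group mean and the bars are the SD (n = 3, 3 and 2). In all 6 panels the pRnhA points lie above the WT points; the rnh1Δrnh201Δ points lie above WT for mrps18 and mrps8 and overlap WT for the other 4.

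By subunit, 4 of 32 large-subunit genes and 2 of 13 small-subunit genes were called, with medians of 0.12 and 0.07 and 27 and 10 genes above 0. By origin, 4 of 20 u genes, 1 of 9 b genes and 0 of 12 m genes were called, with medians of 0.10, 0.16 and 0.06; mrps18, the sixth, has no such name. These classes were not tested against each other. Counted without a model, 15 of the 45 genes had all pRnhA libraries above all WT libraries, or 33.3% beside 15.6% of all rows tested, and 1 had all below, or 2.22% beside 18.1%. That one gene was mrp5 (uS5m), at 680, 630 and 660 in WT and 620 in all 3 pRnhA libraries (-0.08, limma adjusted p 0.34). Its gap to the lowest WT value is a single rounding step. The lowest fold changes belonged to mrpl10 (uL15m), at 650, 740 and 770 in WT and 680, 630 and 600 in pRnhA (-0.18, limma adjusted p 0.16), then to mrpl7 (uL5m) and mrpl17 (mL46), both at -0.14 with adjusted p of 0.18 and 0.25. The gene of uS12m, mrps12, whose bacterial relative helps to set decoding accuracy, hardly differed: 390, 370 and 350 in WT and 350, 390 and 390 in pRnhA (0.03, SE 0.08, limma adjusted p 0.85). At an unadjusted p under 0.05, 11 of the 45 genes passed, or 24.4%, fewer than the 35.6% of all rows.

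Single calls depended on every library, whereas the median moved little. Leaving out WT replicates 1, 2 and 3 in turn gave 14, 1 and 1 genes called, leaving out pRnhA replicates 1, 2 and 3 gave 1, 0 and 1, and leaving out either deletion library, which enters through the shared spread, gave 2. The 14 calls without WT replicate 1 included all 6 genes and mrpl10, the latter lower. Calls over all 6456 rows moved too, from 1306 to 2172, 395 and 780 without WT replicates 1, 2 and 3. Without pRnhA replicates 1, 2 and 3 they were 408, 212 and 634. Over these 8 fits the median of the 45 genes stayed between 0.08 and 0.13. With the replicate number as a block, 3 genes were called (mrpl12, mrpl22 and mrps18), beside 1287 of all rows. With the mating-type transcript as a term 7 were, among them all 6 (mrp7 was added), beside 1319 of all rows. Among only the libraries with mat1-Mc, 2 WT and 2 pRnhA, 0 of the 45 genes and 0 of all rows were called by limma, with 6 of the 45 and 1500 of all rows at an unadjusted p under 0.05; 32 of 45 changes were above 0 and the median was 0.08. The mat2-Pc libraries, 1 of each strain, allow no test. By the authors' deposited table, 9 of the 45 genes had an adjusted p under 0.05 in pRnhA, all higher: the 6 genes and mrp7, mrp11 and mrpl8, against 32.4% of its rows with an adjusted p, 14% higher.

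Scaling to equal library totals raised the median of all rows in this contrast by 0.11 on the log2 scale. It called 16 of the 45 genes, all higher, with a median of 0.22. Of all 6456 rows it called 1633, 1259 of them higher, and 66.2% of all rows were above 0. Such a scaling shifts every gene of a library by nearly the same amount, so the distance of 0.11 between the median of these genes and that of all rows is the same by construction.

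The comparison of rnh1Δrnh201Δ with WT, which shares the WT libraries with the comparison above, asked how the genes respond to loss of RNase H. By limma 0 of the 45 were called, beside 0.294% of all rows tested, 0.0774% higher and 0.217% lower. Without adjustment 4 passed 0.05, mrp49, mrpl10, mrps18 and mrps8, or 8.89% against 21.3% of all rows. The median log2 fold change was 0.05 against 0.01 for all rows, and 30 of 45 changes were above 0 (66.7%, against 52.2%). The summed count was 24599 and 24392 (24496 ± 146 SD, n = 2), above WT replicates 2 and 3 and on either side of WT replicate 1 at 24439. The sum of replicate 2 includes mrpl4 at 830, against 270 in replicate 1, and the SD would be larger without this gene. As a share of the library's total the sum was 0.285% and 0.274%, above every WT library (0.254% to 0.259%). Both deletion totals were below those of WT, and with scaling to totals the median of all rows was 0.07 too. Thus in the normalized counts no shift of the genes as a whole was resolved from the WT spread in this strain.

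The groups did not overlap for 10 genes, 7 higher and 3 lower, or 15.6% and 6.67% of the 45 beside 15% and 13.9% of all rows tested. Among the higher ones, mrps18 had a change of 0.33 (SE 0.10, limma adjusted p 0.12) and mrps8 one of 0.27 (SE 0.08, limma adjusted p 0.12), with the values given above. The third was mrpl44 (mL53), at 120, 110 and 96 in WT, 140 and 130 in rnh1Δrnh201Δ, and 93, 130 and 110 in pRnhA. Its change was 0.32 (SE 0.17, limma adjusted p 0.32), and its pRnhA libraries spanned the whole WT range. Among the lower ones, mrpl10 stood at 620 and 600 against 650 to 770 in WT (-0.24, SE 0.09, limma adjusted p 0.19). The count of mrps16, whose bacterial relative takes part in small-subunit assembly, was 730 in both deletion libraries, 830, 740 and 820 in WT, and 860, 850 and 980 in pRnhA. This gene was thus lowest in the deletion strain and highest in pRnhA, with a change of -0.12 against WT (SE 0.08, limma adjusted p 0.44). The gap between 730 and the lowest WT value, 740, is a single rounding step. The count of mrp51 (bS1m) was 810 in both deletion libraries and 840, 900 and 870 in WT (-0.10, SE 0.06, limma adjusted p 0.38).

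Without WT replicate 1, 3 genes were called in this contrast (mrpl10, mrpl28 and mrps18), with 1264 of all rows, and the median over the leave-one-out fits stayed between 0.03 and 0.08. In the authors' deposited table mrps18 (log2 fold change 0.32, adjusted p 0.02) and mrpl4 (0.74, adjusted p 0.01) were past 0.05, beside 15.4% of its rows, 6.94% higher.

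The high value of mrpl4 came from 1 library. The gene encodes uL29m, whose bacterial relative sits at the exit of the peptide tunnel. It stood at 290, 300 and 240 in WT, 310, 340 and 310 in pRnhA, 270 in rnh1Δrnh201Δ replicate 1 and 830 in replicate 2. Replicate 1 lay within the WT range and replicate 2 far above every other library, so that the fold change was 0.78 with an SE of 0.38 (limma adjusted p 0.28). Without replicate 1 mrpl4 was called against both WT and pRnhA; without replicate 2 it was called against neither.

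The neighbors of mrpl4 on chromosome III moved with it in the same library. Protein-coding genes with a mean of at least 20 were put in the order of assembly ASM294v3, and from mrpl4 outward a run was followed for as long as the count in rnh1Δrnh201Δ replicate 2 was at least 2 times the median of the other 7 libraries. This run, defined after its values had been seen, held 45 genes, 33 before mrpl4 and 11 after it, from SPCC1682.06 to cif1. It holds 1 mitochondrial ribosomal protein gene, mrpl4. Its ratios in replicate 2 were 2.5 to 3.39 with a median of 2.94, and mrpl4 itself had 2.77. In replicate 1 the same genes had a median ratio of 0.949 (0.671 to 1.23), and the medians of the other libraries were 0.949 to 1.00. At one edge cdc31, the gene before the run, had a ratio of 0.948. At the other wtf9, the gene after the run, had 1.87, just under the limit of 2, so that this edge depends on the limit chosen, and brl2 beyond it had 1.00. The 10 genes on each side had a median of 1.00. Elsewhere on chromosome III, 2 of 833 genes reached a ratio of 2.

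**Figure D4:**
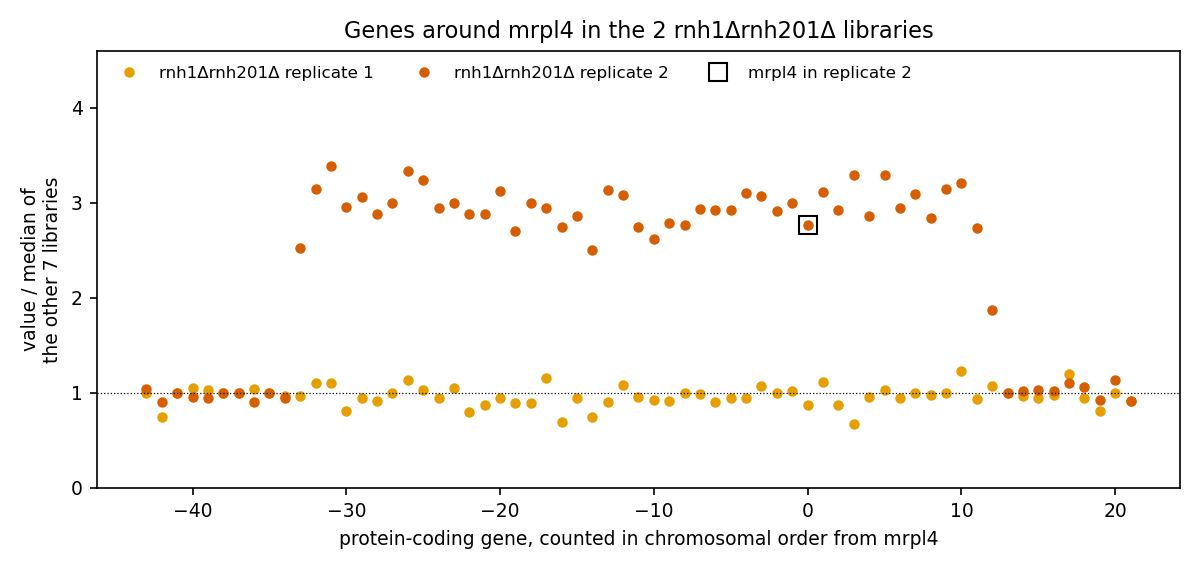
Ratio of the normalized count in each rnh1Δrnh201Δ library to the median of the other 7 libraries (vertical axis) for protein-coding genes counted in chromosomal order from mrpl4 (horizontal axis); the dotted line marks a ratio of 1 and the square marks mrpl4 in replicate 2. In replicate 2 the 45 consecutive genes of the run lie between 2.5 and 3.39 and the genes outside it near 1 except wtf9 at 1.87, whereas in replicate 1 the genes of the run have a median of 0.949.

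Across these 45 neighboring genes, 34 have an adjusted p under 0.05 for rnh1Δrnh201Δ in the authors' deposited table, and 0 were called by limma with both libraries. The number of DNA copies was not measured here, and what raised this stretch was not tested. The change of mrpl4 in rnh1Δrnh201Δ therefore describes replicate 2 and its chromosomal surroundings, and it is not shared by replicate 1. No other mitochondrial ribosomal protein gene had surroundings of this kind: over windows of 5 genes on each side, the median log2 ratio of replicate 2 to the median of the other libraries was 1.60 around mrpl4 and between -0.06 and 0.11 around each of the other 43 matched genes.

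The direct comparison of rnh1Δrnh201Δ with pRnhA, which shares libraries with both comparisons above, again called 0 of the 45 genes, beside 0.356% of all rows tested, 0.232% higher and 0.124% lower. Their median was -0.02, and 14 of 45 were above 0, against 51.8% of all rows. Both deletion libraries lay below all pRnhA libraries for 9 genes, or 20% beside 14.1% of all rows, and above them for 0, beside 17.9%. The largest of the 9 was mrp21 (bS21m, a small-subunit protein), at 270 and 310 in rnh1Δrnh201Δ, 330, 350 and 400 in pRnhA, and 290, 330 and 320 in WT. Its change was -0.31 (SE 0.11, limma adjusted p 0.31), with WT between the altered strains. For mrps16 the change was -0.29 (SE 0.08, limma adjusted p 0.22) and for mrpl12 -0.25 (SE 0.07, limma adjusted p 0.20). Without adjustment 6 genes passed 0.05, or 13.3% beside 12.5% of all rows.

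The genes next to those called higher in pRnhA did not share one direction. Of the 12 genes flanking the 6, 3 were called, near the background of 20.2% of all rows tested. SPCC1739.01 beside mrpl22 was lower (-0.64, limma adjusted p 0.0027), and so was ipk1 beside mrpl12 (-0.55, limma adjusted p 0.0066). On the other side of mrpl12, lsg1 was higher (0.39, limma adjusted p 0.023). The other 9 were not called, with changes from -0.34 to 0.22.

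Related groups of genes give the setting. Of 30 further genes for mitochondrial ribosome proteins that carry other names, 5 (16.7%) were called higher and 1 lower in pRnhA. Of all rows tested, 8.88% were called higher and 11.4% lower. The 30 genes had a median of 0.10, and 24 were above 0. The higher ones were bot1 (0.21), rsm24 (mS35, 0.31), rsm25 (mS23, 0.33), rsm27 (mS33, 0.34) and SPBC2F12.10 (L35, 0.36), and the lower one SPBC4B4.11 (mS41, -0.30), with limma adjusted p from 0.013 to 0.047. The median of these genes lay close to the 0.11 of the mrp-named genes. Their highest called example, SPBC2F12.10, stood at 670, 500 and 560 in WT and 770, 690 and 740 in pRnhA.

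The proteins must cross both mitochondrial membranes, and among 22 genes named tom or tim, mostly of the TOM and TIM import complexes, 7 were called higher and 0 lower, or 31.8% higher against 8.88% of all rows, with a median of 0.15. They were tom7 and tom22 of the outer-membrane TOM complex, and tim15, tim17, tim23, tim44 and tim50 of the inner-membrane TIM23 complex. By RefSeq product tim11 encodes an ATP synthase subunit and tim40 a disulfide relay subunit, and neither was called. The largest change was that of tim44, which tethers the import motor: 1500, 1200 and 1300 in WT, 1800, 1900 and 1900 in pRnhA, and 1700 and 1600 in rnh1Δrnh201Δ (0.49 in pRnhA, limma adjusted p 0.0084). Among 10 mitochondrial translation factors, 1 was called higher and 1 lower, near the 8.88% and 11.4% of all rows. The initiation factor gene SPBC16C6.05 was at 730, 700 and 600 in WT and 950, 880 and 890 in pRnhA (0.43, limma adjusted p 0.015), whereas the GTPase gene SPAC1B3.04c, with the RefSeq product GUF1, was at 200, 260 and 310 and at 170, 170 and 160 (-0.60, limma adjusted p 0.029).

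Of 51 nuclear genes for respiratory chain and ATP synthase subunits and assembly factors, 3 were called higher (cox13, qcr7 and qcr10) and 4 lower (atp1, atp2, cox1101 and cox1102). Both counts are shares below the 8.88% and 11.4% of all rows, with 5.88% called higher. The median was 0.11. The atp1 and atp2 genes encode the catalytic head of the ATP synthase, and atp1 stood at 5700, 5500 and 5200 in WT and 4100, 3800 and 4000 in pRnhA (-0.46, limma adjusted p 0.0050). The rows cox1101 and cox1102 are near-identical copies by product and value, so their calls are not independent. For 137 cytosolic ribosomal protein rows, many of which are paired copies, 24 were called higher and 2 lower, with a median of 0.16. The higher ones are 17.5% of the rows, beside 8.88% of all rows tested. These genes also spread most in WT, at library medians of 0.25, -0.06 and -0.19 for replicates 1, 2 and 3; replicate 1 was the highest and replicate 3 the lowest for the mitochondrial ribosomal protein genes too. The part that this spread has in the results was not tested.

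Transcripts of the mitochondrial genome include the templates of this ribosome and its RNAs. Of 34 rows tested, 0 were called higher and 9 lower in pRnhA, beside 8.88% and 11.4% of all rows, and 25 did not pass the test. Their median was -0.40, with 6 of the 34 changes above 0; without the tRNA rows 3 of 13 were lower, with a median of -0.27. The 3 were atp6, atp9 and SPMIT.02. The count of atp6 was 20000 in each WT library, 17000, 15000 and 15000 in pRnhA, and 16000 and 17000 in rnh1Δrnh201Δ (-0.35 in pRnhA, limma adjusted p 0.029). The RNAs of the ribosome itself were not called: 15S_rRNA stood at 66, 73 and 89 in WT and 60, 70 and 110 in pRnhA (0.04, limma adjusted p 0.93), and 21S_rRNA at 190, 180 and 150 and at 160, 150 and 170 (-0.11, limma adjusted p 0.65). Neither was var1, the ribosomal protein gene of the mitochondrial genome, at 5300, 6100 and 6800 in WT and 7200, 6900 and 6600 in pRnhA (0.19, limma adjusted p 0.22). The labels name a kit made for mRNA, and what it recovers of ribosomal and transfer RNAs was not tested. The row SPMIT.02 fell from 3900, 5600 and 7000 in WT to 3000, 2800 and 3200 in pRnhA (-0.84, limma adjusted p 0.018).

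The CCAAT-binding complex regulates respiratory genes in yeasts. Of its 4 genes, php4, which encodes its iron-responsive repressor subunit in fission yeast, was called lower in both altered strains. Of all rows, 11.4% were called lower in pRnhA and 0.217% in rnh1Δrnh201Δ. It stood at 1100, 1100 and 1000 in WT, 860, 830 and 810 in pRnhA (-0.35, limma adjusted p 0.0084), and 760 in both deletion libraries (-0.49, limma adjusted p 0.046). In rnh1Δrnh201Δ the related groups otherwise held 1 call, a mitochondrial tRNA row (SPMITTRNAALA.01, -0.47, limma adjusted p 0.048). Their medians there were 0.04 for the other mitochondrial ribosome genes, 0.16 for import, -0.02 for the respiratory chain, 0.17 for cytosolic ribosomal proteins and -0.24 for the mitochondrial genome. Groups were not tested against each other.

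**Figure D5:**
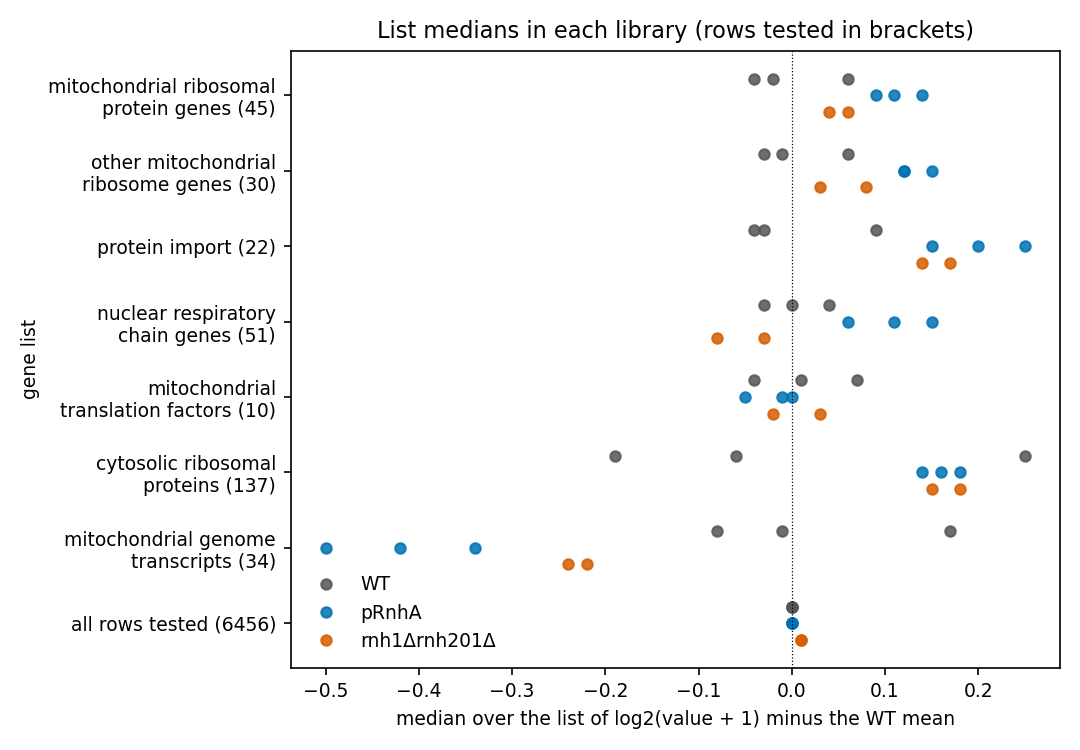
Median over each gene list of log2(value + 1) minus the WT mean (horizontal axis) in each of the 8 libraries, with the number of rows tested in brackets. The mitochondrial ribosomal protein genes lie at 0.09 to 0.14 in the pRnhA libraries and at -0.04 to 0.06 in WT; the cytosolic ribosomal proteins span -0.19 to 0.25 in WT, and transcripts of the mitochondrial genome lie lowest in pRnhA.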

How the data were processed

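The authors deposited one table of RNA-seq values; the submitters' processing notes name TopHat2 2.0.5, DESeq2 and the builds hg19 and ASM294v2, with no role or order. Per the file headers it holds DESeq2-normalized counts, here treated as a score because every deposited value is whole with at most 2 significant digits, log2 fold changes and adjusted p-values with 2 decimals. The header names no reference group for the deposited fold changes; the values show it to be WT. Use of strand in counting is not given in the sources used here. Library kit and growth are given in the labels' protocols.

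Groups came from sample titles. From the deposited scores, log2(value + 1) was fitted with limma-trend (limma 3.58.1, R 4.3.3) over the 6456 rows with a mean of at least 1, 8 libraries in 1 fit of 3 groups (5 residual degrees of freedom), p-values adjusted by Benjamini-Hochberg per contrast and called under 0.05. Fold changes on this scale understate changes of low genes. The fit was tested on simulated data with far fewer changed rows than were called in pRnhA against WT. Large known changes were mostly called there, but ones as small as those of most genes described here almost never. That call rate does not carry over to pRnhA against WT, where changes of 0.23 to 0.39 were called. A missing call does not show that a gene did not differ. Alternatives were other pseudocounts, filters, scaling to totals, no trend, a replicate block, the mating-type transcript as a term or as a restriction, 2 groups only, each library left out, and the authors' table.

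Genes named are, per contrast, up to 6 called in each direction, or where fewer than 3 were called the 3 higher and 3 lower with the largest change among those whose libraries do not overlap, and the 3 with the largest coefficient of variation in WT; others were named after their values were seen. The genes, lists and rules were chosen with earlier results of these data known. Names, products and gene order came from RefSeq on ASM294v3, not the build of the files, so no coordinates are given. Lengths and sequences were not used here, so the planned levels per length and sequence features were not run.

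Pairing was checked over 5342 genes: deviations of same-numbered WT and pRnhA libraries correlated at 0.289, 0.286 and 0.547. WT replicate 1 and pRnhA replicate 2, with different numbers, correlated at 0.279, and WT replicate 2 and pRnhA replicate 1 at 0.303. Same-numbered pairs with rnh1Δrnh201Δ ran from -0.425 to 0.400. The main fit used no pairing, and the replicate number entered only as a block in an alternative. Of all 21 pairs across groups, the 11 with the same mating-type transcript correlated positively and the other 10 negatively, whether or not their numbers matched. Deviations were taken from each group's mean, so both rnh1Δrnh201Δ libraries, which differ in mating-type transcript, mirror each other exactly. Their pairs hold each value with both signs, and deviations in the larger groups cancel out too. The 21 signs are therefore not independent, and their count is no test of the mating-type transcript. Any further effect of a shared number was not tested.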

Additional observations from a re-analysis of the deposited data

Results flagged for a closer look

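The antisense row mrpl4-antisense-1, left out by the name rule, held a value far above its WT libraries. It stood at 28, 38 and 34 in WT, 28, 39 and 33 in pRnhA, 33 in rnh1Δrnh201Δ replicate 1 and 100 in replicate 2 (limma adjusted p 0.32 for rnh1Δrnh201Δ against WT). It was high in the same library as mrpl4 and the run of genes around it, and what raised it was not tested.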

How the results depend on the processing

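Directions held for all 15 changes of named genes: of 282 values under alternatives, 225 kept their side of the threshold, 54 lost the call, 3 gained one and 0 reversed. All 54 losses fall on the 6 genes called in pRnhA against WT, as the other changes had no call to lose. Each of the 6 lost its call in 5 (mrps18) to 11 (mrps8) of 19 alternatives. For pRnhA against WT, the 6 genes called became 16 with scaling to library totals, 2 without the trend, 3 with the replicate block, 2 with only both groups fitted and 0 with only mat1-Mc libraries (0 to 14 with a library left out), and their median of 0.11 became 0.22 with scaling to totals (0.08 to 0.13). Calls over all rows, 1306, became 1633 with scaling to totals, 858 without the trend and 1287 with the replicate block. They became 912 with only both groups fitted, 0 with only mat1-Mc libraries and 1960 in the authors' deposited table (212 to 2172). For rnh1Δrnh201Δ against WT, 0 genes became 2 in the authors' deposited table (0 to 3), the median of 0.05 became 0.11 with scaling to totals and 0.00 with only mat1-Mc libraries (0.03 to 0.08), and 19 calls over all rows became 12 and 55 with pseudocounts of 0.5 and 5, 213 with scaling to totals, 5 without the trend, 4 with only both groups and 932 in the authors' deposited table (3 to 1264). For rnh1Δrnh201Δ against pRnhA, 0 genes stayed within 0 to 1, the median of -0.02 became -0.07 with scaling to totals and -0.06 with only mat1-Mc libraries (-0.07 to -0.02), and 23 calls over all rows became 35 without a filter and 70 with only both groups (5 to 93). The replicate block changed no other count of these genes called at the adjusted threshold; without adjustment it gave 12 in place of 11 for pRnhA against WT and 5 in place of 6 for rnh1Δrnh201Δ against pRnhA, where genes above 0 went from 14 to 18. The authors' deposited table gives no value for the last contrast. The cause of these moves was not tested. Fits with a lone library in an arm assume that it varies like the other groups. With the raw depth unknown and values rounded, changes of a few percent cannot be resolved for a single gene.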
